A study of Mus musculus with 2 samples.

Results

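The 7 genes described here are linked to gamma delta T cells of the interleukin-17-producing, innate-like kind, but some are also made by other cells. They are the cytokine genes Il17a and Il22, the chemokine receptor gene Ccr6 and the transcription factor genes Ahr, Sox13, Rora and Maf. They were taken by name, as the probes that the platform annotation gives to 1 of these genes alone, which found 8 probes for 7 of the 4331 named genes. Rora had 2 probes, each other gene had 1, and 0 further probes were shared between one of them and another gene. The study compared CD5+ gamma delta T cells of LAT3YF and wildtype spleens on 2 arrays, each hybridised with both populations in different dyes that were exchanged between the arrays. LAT is an adaptor protein that relays signals from the T cell receptor to enzymes inside the cell, and the name of the allele stands for tyrosines replaced by phenylalanine in it. Both populations came through anti-CD5 beads and a FACSDiva sort. The sources used here do not give the strain, the age, the number of animals or any pooling of spleens.

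Gamma delta T cells that make interleukin-17 acquire this capacity largely in the thymus, before they meet an antigen. SOX13 and MAF take part in setting the program up, Rora encodes the nuclear receptor RORα, which promotes Il17a transcription, and AHR is a ligand-activated factor needed for much of the Il22 made by these cells. CCR6 is a surface receptor for the chemokine CCL20 and is commonly used to mark the interleukin-17-producing subset.

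Ratios are deposited as logarithms, read here in base 10, and the sign of the - polarity array was turned to match the + polarity array. Each mean is given ± SD over the 2 arrays, which counts technical spread only, since the arrays stand for 1 replicate of the comparison. The sources used here do not say whether LAT3YF or wildtype was the numerator. If it was wildtype on the + polarity array, positive values mark transcripts higher in wildtype, and if it was LAT3YF, they mark transcripts higher in LAT3YF. The signs below therefore show which genes lay on the same or on opposite sides, not which population had more. A gene is called when its mean is at least 2-fold (0.301 on the log10 scale) and its sign is the same on both arrays, a rule of size and not a test. Under this rule 3.72% of all named genes were called positive, 5.03% negative and 8.75% in either direction.

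The promoters of Il17a and Ccr6 are shown because their windows were the 2 of 6 member windows that hold the letters TGACCT, the reverse complement of AGGTCA, the half-site bound by ROR nuclear receptors. They were picked for these letters, and the window of Il22, on the same side of the comparison, does not hold them. The sequences come from RefSeq (GRCm38.p6), run 5′ to 3′ on the plus strand and end at the base before the annotated gene, which cut the Ccr6 window to 248 bases. The Il17a window is chr1:20730655-20730904 and that of Ccr6 chr17:8235793-8236040. Capitals mark the half-site, and the lines follow.
Il17a: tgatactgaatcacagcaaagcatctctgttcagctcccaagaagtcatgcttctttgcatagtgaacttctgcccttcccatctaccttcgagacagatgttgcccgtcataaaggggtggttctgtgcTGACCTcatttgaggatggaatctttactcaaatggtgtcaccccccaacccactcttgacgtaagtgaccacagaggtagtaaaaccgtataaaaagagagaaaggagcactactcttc
Ccr6: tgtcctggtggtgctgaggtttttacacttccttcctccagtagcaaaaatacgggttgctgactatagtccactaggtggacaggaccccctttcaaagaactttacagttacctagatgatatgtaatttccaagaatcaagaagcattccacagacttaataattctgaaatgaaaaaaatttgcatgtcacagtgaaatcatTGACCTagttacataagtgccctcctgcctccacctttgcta
The half-site lay 115 to 120 bases before the Il17a start and 39 to 44 bases before the Ccr6 start used in the table, on the opposite strand in both. AGGTCA was searched on both strands of the 250 bases before each start in the RefSeq promoter table, and 14.02% of 32851 windows held it. TGCTGA, the core of a MAF element, was found in 16.08% of windows. It occurred 1 time for Il17a, at 118 to 123 bases before the start, where its last bases overlap the half-site, and 2 times for Ccr6. GCGTG, the core of an AHR element, was found in 28.16% of windows and among the members only for Rora. AACAAT, a SOX core, was found in 9.42% of windows and in none of those of the members. The table had 6 windows for 5 of the members and no entry for Ahr and Maf. The windows of Il22, Rora and Sox13 and a second one of Ccr6 held no half-site and are not shown. These matches describe letters in a window and were not tied to any measured binding.

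The 7 genes split into a group on the negative side, made of both cytokines, the receptor and Ahr, and a group on the positive side, made of the other 3 transcription factors. Each of the 7 had the same sign on both arrays, as did 59.6% of all named genes. A total of 4 members (Il22, Ahr, Ccr6 and Il17a) were called negative and 1 (Sox13) positive, beside the background shares of 5.03% and 3.72%. Maf and Rora were not called. The difference has no replicate check, and the members were picked with earlier results of these arrays known, so the counts are a description.

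**Figure D1:**
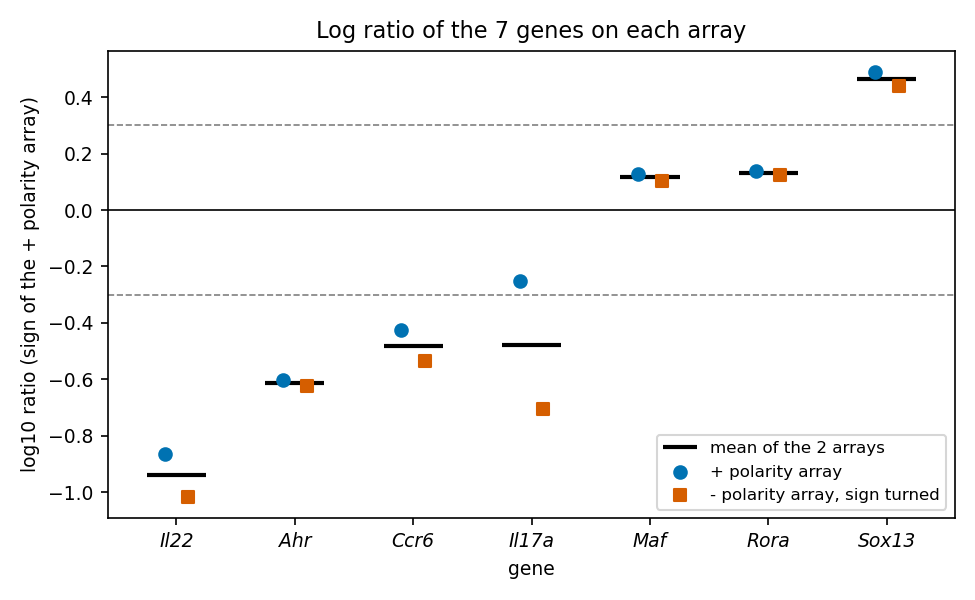
Log10 ratio (vertical axis) of each of the 7 genes (horizontal axis) on the + polarity array (circles) and on the - polarity array after its sign was turned (squares), with the mean as a bar and dashed lines at 2-fold. Il22, Ahr, Ccr6 and Il17a lie below 0 and Maf, Rora and Sox13 above 0 on both arrays, and the arrays are farthest apart for Il17a, at -0.252 and -0.706.

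Il22, which encodes a cytokine that acts on epithelial cells, had log10 ratios of -0.864 (+ polarity array) and -1.02 (- polarity array). Both arrays were far past 2-fold, at 7.32-fold and 10.4-fold. The mean was -0.940 ± 0.107 (8.70-fold), and 12 of the 4331 named genes had a lower mean. The SD was larger than the median of 0.0579 over all named genes but small beside the ratio. Some mouse strains carry a near-identical second copy of this gene, Il22b (Iltifb), and whether the probe separates the copies was not tested.

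Il17a, which encodes the cytokine that gives these cells their name, had -0.252 on the + polarity array, against -0.706 on the other. The first is 1.79-fold and short of the threshold, the second 5.08-fold and past it. The mean was -0.479 ± 0.321 (3.01-fold), and with the + polarity array alone the call was lost. Its difference between the arrays was wider than that of 90.8% of named genes, so the size of its ratio is the least settled of the 7. Both arrays nevertheless gave it a negative sign.

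Ccr6 had -0.425 and -0.535 on the + and - polarity arrays, each past 2-fold. Its mean was -0.480 ± 0.0773 (3.02-fold), which differs from that of Il17a by 0.0007 and cannot be told apart from it. Ahr had -0.603 and -0.622 on the + and - polarity arrays. The arrays nearly coincided, and the mean was -0.613 ± 0.0133 (4.10-fold), with 59 named genes lower. Ahr thus lay on the side of Il22 and apart from the other transcription factors of the group.

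Sox13, an HMG-box factor that marks early gamma delta lineage cells, had 0.489 and 0.441 on the + and - polarity arrays. Its mean was 0.465 ± 0.0342 (2.92-fold), the 57th highest of all named genes, on the opposite side from Il22 by 1.40 on the log10 scale. Rora had 0.139 and 0.123 on the + and - polarity arrays, averaged over its 2 probes, with a mean of 0.131 ± 0.0115 (1.35-fold). One of its probes gave 0.136 and 0.0604 and the other 0.143 and 0.186, so both were positive on both arrays and none reached 2-fold. Maf, a bZIP factor, had 0.127 and 0.103, with a mean of 0.115 ± 0.0171 (1.30-fold). The probe mean of Rora and the value of Maf were repeatable between the arrays but small, ranking 598 and 700 from the top of all named genes. The single Rora probes varied more, with SDs of 0.0533 and 0.0302, in opposite directions between the arrays.

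In order of their means the genes ran Il22, Ahr, Ccr6, Il17a, Maf, Rora and Sox13. The array values of Il22 did not overlap those of Ahr, and those of Ahr did not overlap those of Ccr6. The wide pair of Il17a spanned the values of both Ahr and Ccr6. The pairs of Maf and Rora overlapped, with a gap of 0.016 between their means, and Sox13 stood 0.334 above Rora without overlap.

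**Figure D2:**
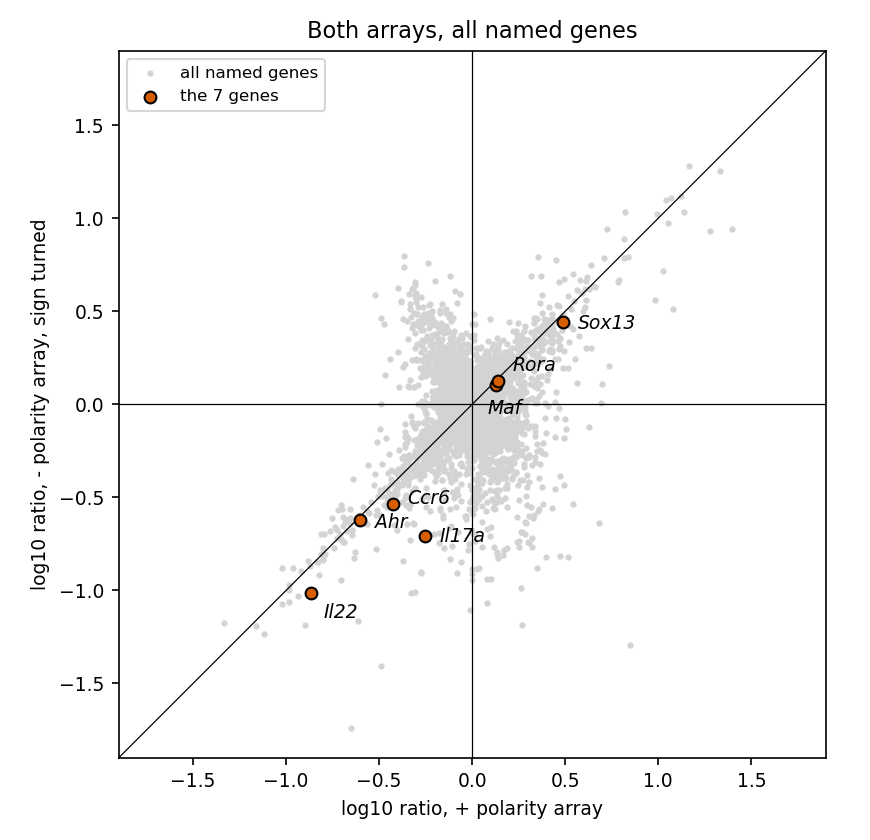
Log10 ratio on the + polarity array (horizontal axis) against that on the - polarity array after turning (vertical axis) for the 4331 named genes (grey) and the 7 genes (orange), with the line of equality. All but Il17a lie close to the line, and Il17a lies below it at -0.252 and -0.706.

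The genes nearest to each member by Euclidean distance over its 2 turned ratios were Mrc1 for Il22 (distance 0.0727), Gm11342 for Ahr (0.0192), Tgfbi for Ccr6 (0.0170) and Apoc1 for Il17a (0.0470). On the positive side they were Sema4d for Maf (0.0012), Yipf5 for Rora (0.0059) and Mcur1 for Sox13 (0.0109). With only 2 arrays this likeness means that the genes had nearly equal ratios on both.

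Other genes of the interleukin-17 program did not lie on one side. Of 23 listed genes besides the members, 15 were measured, of which 1 was called negative, 2 were called positive and 12 were not called, with a median of -0.00627 against 0.00231 over all named genes. The called genes were Serpinb1a, a protease inhibitor, at -0.420 ± 0.0921 (2.63-fold), Batf, an AP-1 factor needed for interleukin-17-producing T helper cells, at 0.624 ± 0.0641 (4.20-fold), and Ccr2, a homing receptor of these gamma delta cells, at 0.315 ± 0.0519 (2.07-fold). Ccr2 and Ccr6, both receptors of this subset, thus lay on opposite sides. Ccr2 had 0.279 on the + polarity array, short of 2-fold. The cytokine receptor genes Il1r1 (-0.240 ± 0.0267), Il18r1 (-0.160 ± 0.0597) and Il7r (-0.00627 ± 0.0103) were not called. Zbtb16, which encodes the innate-like factor PLZF, was at -0.181 ± 0.0313, repeatable between the arrays but below 2-fold. Il21 (0.224 ± 0.292), Blk (-0.245 ± 0.352), Aqp3 (-0.129 ± 0.290) and Itgae (0.0278 ± 0.167) varied between the arrays by more than their means. Lgals3 (0.200 ± 0.0837), Cd44 (0.0570 ± 0.0211), Etv5 (0.00975 ± 0.0037) and Ltb (-0.0157 ± 0.0288) were not called either. Il17f and Il23r had no single-gene probe among the named genes.

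**Figure D3:**
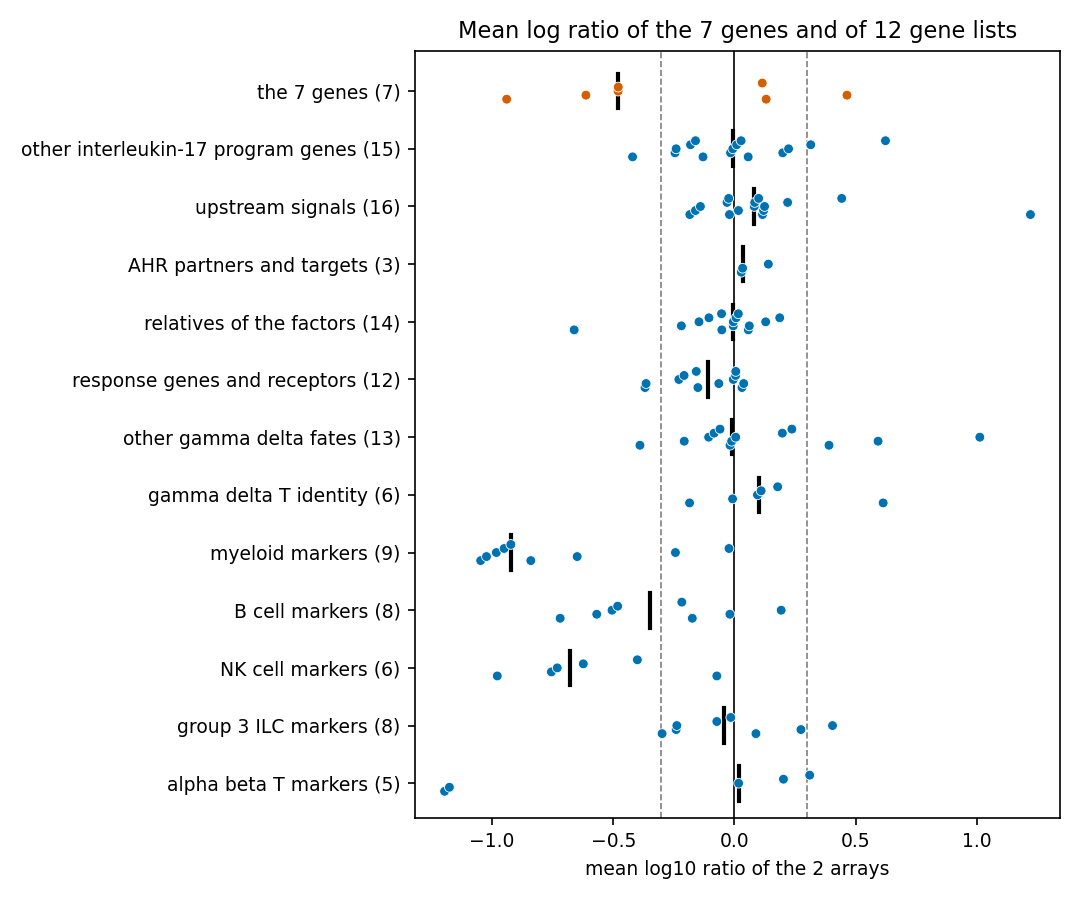
Mean log10 ratio (horizontal axis) of the 7 genes (orange) and of the measured genes of 12 lists (blue, number in brackets), with the median of each row as a black bar and dashed lines at 2-fold. The 7 genes split to both sides, the other interleukin-17 program genes centre near 0 and the myeloid markers centre at -0.922.

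The partners and targets of AHR gave small values. Of 13 listed genes 3 were measured and 0 called: Ahrr, the AHR repressor and a target of AHR, at 0.0286 ± 0.00011, Arnt, its dimer partner, at 0.0341 ± 0.0177, and the chaperone gene Hsp90aa1 at 0.140 ± 0.0373. None of these was negative like Ahr, but Ahrr (1.07-fold) and Arnt (1.08-fold) lay too near 0 to be given a side. Cyp1a1, Cyp1b1 and Tiparp, the usual readouts of AHR activity, had no single-gene probe.

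Among relatives of the transcription factors, 14 of 31 listed genes were measured, 1 called negative and 0 called positive, with a median of -0.00438. The called gene was Sox5, a SoxD-group factor like Sox13, with -0.644 and -0.679 on the + and - polarity arrays. Its mean of -0.661 ± 0.0248 (4.58-fold) put it on the opposite side from Sox13. Sox6, the other SoxD gene, had 0.308 and -0.600 on the + and - polarity arrays, so its sign changed between the arrays and its mean of -0.146 ± 0.642 says little. The other Sox genes of this list were Sox10 (-0.0528 ± 0.0510), Sox12 (-0.00411 ± 0.0759), Sox17 (0.00720 ± 0.243) and Sox18 (0.0577 ± 0.370). Small MAF proteins, which lack an activation domain, gave 0.187 ± 0.0288 for Mafg, -0.219 ± 0.0328 for Mafk and 0.0164 ± 0.207 for Maff. The nuclear receptor relatives Rorb (0.0618 ± 0.329), Nr1d1 (-0.00465 ± 0.0494) and Nr1d2 (0.129 ± 0.0629) and the bHLH-PAS genes Arntl (-0.0518 ± 0.0061) and Sim2 (-0.105 ± 0.214) were not called.

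The members were also placed within their gene families. Among 21 measured interleukin genes, 4 were called negative and 4 positive, and the lowest were Il15 (-0.950 ± 0.649), Il22, Il18 (-0.721 ± 0.0059) and Il17a, in this order. Il15 and Il22 cannot be ranked against each other, since Il15 had -0.491 and -1.41 on its arrays. Among 19 chemokine receptor genes, 3 were called negative and 2 positive, and Ccr6 was lowest, level with the lymph node homing receptor gene Ccr7 at -0.478 ± 0.227. Among 9 Sox genes Sox13 was highest and Sox5 lowest, and these were the only 2 called. Among 38 nuclear receptor genes, Rora was one of 19 with a mean above 0, and 0 were called positive. Only Esrrb (0.158 ± 0.331) and Nr1i2 (0.176 ± 0.268) had a higher mean, and both changed sign between the arrays.

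**Figure D4:**
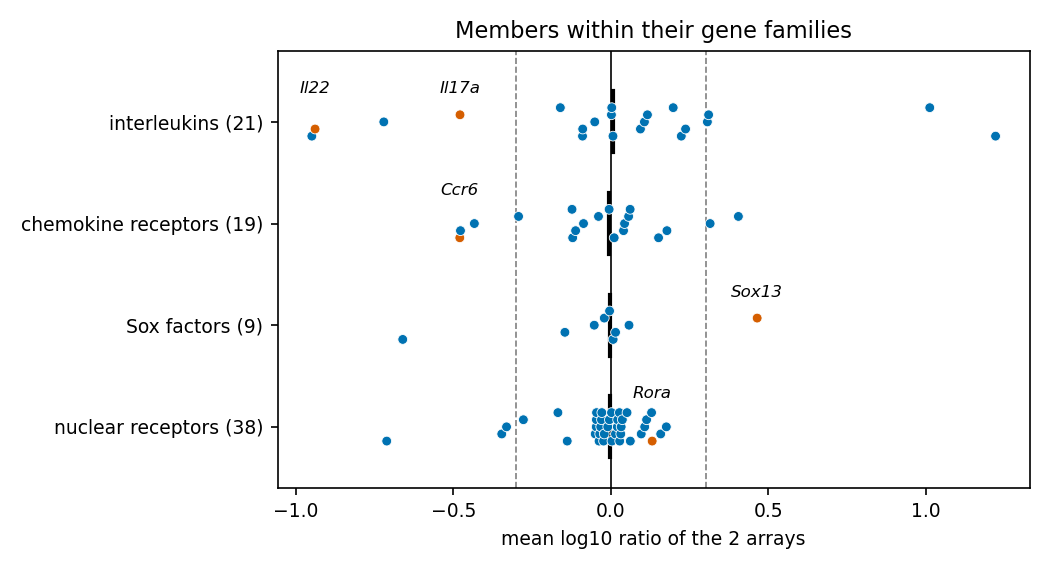
Mean log10 ratio (horizontal axis) of the measured genes of 4 families (rows, number in brackets), with the members in orange and named, the median as a black bar and dashed lines at 2-fold. Il22, Il17a and Ccr6 lie at the low end of their rows, and Sox13 at 0.465 is the highest Sox gene. Rora at 0.131 lies near the high end of its row.

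Signals that induce the program in T cells included the largest ratio of these lists. Of 16 measured genes, 2 were called positive and 0 negative, with a median of 0.0830. Il6, which promotes interleukin-17 production by T helper cells, was at 1.22 ± 0.0827 (16.6-fold), opposite to Il17a and Il22. Irf4, a factor that cooperates with BATF, was at 0.443 ± 0.0588 (2.77-fold), on the side of Batf. A further 12 measured genes carry or answer interleukin-17 and interleukin-22 signals. Their median was -0.107, and 2 were called negative and 0 positive: the chemokine gene Cxcl2 at -0.369 ± 0.0217 (2.34-fold) and Nfkbiz, a nuclear cofactor induced by interleukin-17, at -0.364 ± 0.0244 (2.31-fold). The gene of the CCR6 ligand, Ccl20, was at -0.208 ± 0.114 and not called. Of the 12 genes, 8 had a mean below 0 and 4 above. Csf3 (-0.00445 ± 0.224), Cxcl5 (0.0315 ± 0.0724), Lcn2 (0.0386 ± 0.168) and Cxcl1 (-0.157 ± 0.429) changed sign between the arrays. Socs3 was at -0.0641 ± 0.0258.

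Among genes of other gamma delta fates, Il13 and Gata3 of the type 2 fate lay opposite to Il17a and Il22. Of 13 measured genes, 3 were called positive and 1 negative, with a median of -0.0112. The positive genes were Il13, a type 2 cytokine, at 1.01 ± 0.0545 (10.3-fold), its regulator Gata3 at 0.593 ± 0.0057 (3.92-fold) and the chemokine gene Ccl5 at 0.391 ± 0.0211. The type 2 cytokine genes Il4 (0.198 ± 0.272) and Il5 (0.237 ± 0.151) were not called. Id3, an inhibitor of E proteins that responds to receptor signals, was at -0.390 ± 0.0373. Ifng, the product of the interferon-producing fate, was at -0.0592 ± 0.0473, and Cd27, a receptor that marks that fate, at -0.207 ± 0.0294. Both were below 2-fold.

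Most measured myeloid and NK cell markers and 4 of 8 B cell markers were called on the side of Il22, Ahr, Ccr6 and Il17a, and what part they had in these ratios was not tested. Of 9 measured myeloid markers, 7 were negative by the rule of size and 0 positive. Their median was -0.922 with a range from -1.05 to -0.0221. Among them were Adgre1 (-1.05 ± 0.0347), Vcam1 (-1.02 ± 0.0580), Mrc1 (-0.982 ± 0.0660), Cd14 (-0.950 ± 0.103) and Spic (-0.922 ± 0.0583), while Itgam was at -0.0221 ± 0.0123. Of 6 NK cell markers 5 were called negative, with a median of -0.677 and a range from -0.979 to -0.0724, led by Klrd1 (-0.979 ± 0.0120), Klrb1c (-0.755 ± 0.0812), Klra1 (-0.731 ± 0.133) and Klrc1 (-0.624 ± 0.118), while Ncr1 was at -0.0724 ± 0.0307. Of 8 B cell markers 4 were called negative, with a median of -0.349 and a range from -0.719 to 0.193, namely Ighm (-0.719 ± 0.0310), Cd72 (-0.568 ± 0.0236), Blnk (-0.505 ± 0.0692) and Cd79b (-0.482 ± 0.0650). The other B cell markers were not called, with Cd79a at -0.217 ± 0.147, Ms4a1 at -0.174 ± 0.0217, Pax5 at -0.0184 ± 0.0329 and Cd22 at 0.193 ± 0.0237. Ccr6 is also made by B cells and Ahr by several myeloid cells. In RNA from a sorted population, a change in the share of such cells and a change in RNA per cell cannot be told apart.

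Group 3 innate lymphoid cells also make interleukin-22 and interleukin-17, and their markers did not lie on one side. The 8 measured genes had a median of -0.0436, with 5 means below 0 and 3 above. The only one called was Cxcr5, positive at 0.405 ± 0.0323. Kit was at -0.298 ± 0.0701, just under 2-fold, Il1r1 at -0.240 ± 0.0267, Arg1 at -0.237 ± 0.116 and Id2 at 0.275 ± 0.0073. Of 5 alpha beta T cell markers, the CD8 chain genes Cd8a (-1.20 ± 0.767) and Cd8b1 (-1.18 ± 0.0820) were called negative and Zbtb7b positive at 0.311 ± 0.0751. The 6 measured genes listed for gamma delta T cell identity are not specific to gamma delta cells. Among them Cd5, used for the isolation, was the only one called, at 0.614 ± 0.0077 (4.11-fold), on the side of Sox13. The CD3 chain genes Cd3d (-0.00738 ± 0.0063), Cd3g (0.095 ± 0.0248), Cd3e (0.110 ± 0.101) and Cd247 (-0.185 ± 0.135) were not called. Lat, the gene that carries the mutation, was at 0.179 ± 0.0105, and a changed codon would not show in its ratio. The list's gamma delta receptor constant genes had no single-gene probe, so the identity of the cells could not be checked through them. Channel intensities were not analysed here, so levels of any of these markers in either population are not given.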

How the data were processed

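The authors deposited, for every probe on each array, a single log ratio between the channels. The labels give the dye-reversed layout, with wildtype in channel 1 and LAT3YF in channel 2 for + polarity, and exchanged for - polarity. The sources used here give neither the base of the logarithm, the numerator, the scanner, the background correction nor the normalization, and the deposited values were read as log10. Their medians were -0.00284 and 0.00101, and the columns correlated at r = -0.301 across probes before the - polarity array was turned. Of 8014 probes, 4654 had 1 gene in the platform annotation, 73 several and 3287 none listed. A gene's value is the mean over its single-gene probes (4331 genes). All 7 members matched RefSeq by gene identifier. Nothing in the labels names separate animals for the arrays, so they count as 1 replicate, and no test was made. The number of arrays limits the precision.

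The members, lists and tests were chosen with earlier results of these data known. Genes were named by rule: every measured gene of the program, AHR and relatives lists, and up to 4 called genes per side of the others, with Lat and the nearest gene to each member. The family genes, Ccl20, Csf3, Cxcl1, Cxcl5, Lcn2, Socs3, Kit, Arg1, Id2, Ifng, Il4, Il5, Cd27, Cd14, Itgam, Ncr1, Cd79a, Ms4a1, Pax5, Cd22, Cd3d, Cd3g, Cd3e and Cd247 were named after their values were seen. The calling code was tested on simulated data that shuffled the differences between the arrays separately for each array. A real dye-reversed pair mirrors them, so that test does not measure the error rate of the calls. Alternatives were other thresholds (1.5-fold and 3-fold), log bases, centring, scaling, probe rules and single arrays. Python 3.11.15, numpy 2.4.6 and pandas 2.3.3 were used.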

Additional observations from a re-analysis of the deposited data

How the results depend on the processing

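The members' signs could not change under these alternatives. Either array alone only restates that each member had the same sign on both. Scaling keeps every sign, and centring moved the means little (Maf from 0.1152 to 0.1147). The 4 negative calls and that of Sox13 were kept with centred or scaled arrays. Rora was at 0.164 when its larger probe replaced the mean. Probes of several genes and the choice of probe could not alter the members with 1 probe. With 2 arrays, a single array cannot move a mean by more than its SD, so that comparison shows nothing about stability. Il17a lost its call with the + polarity array alone and where each array had to pass 2-fold. At 3-fold the 4 negative members remained and 0 were positive. The log base matters most. Read as natural logs, 1 member was negative (Il22, 2.56-fold) and 0 positive. Read as log2, 0 members were called and Il22 would be 1.92-fold. Single arrays were called by size alone, since the condition on sign needs both arrays. Over all named genes, this laxer rule gave 224 to 436 negative and 228 to 306 positive calls. The counts were 409 and 365 at 1.5-fold, 96 and 48 at 3-fold, 40 and 22 as natural logs and 7 and 10 as log2. Among the other program genes, single arrays gave 1 to 3 negative and 1 to 3 positive calls. The counts were 3 and 4 at 1.5-fold, 0 and 1 at 3-fold and 0 and 0 under either other base. Where each array had to pass 2-fold, 1 was positive, Batf, as Ccr2 fell short on the + polarity array. Of 308 values recomputed for the remaining lists, 55 moved. A count moved when it changed by more than 1.5 times, or to or from 0. A median moved when it changed by more than the SD of the list's array medians. Medians near 0 changed sign on single arrays: other program genes (0.00715, + polarity), other gamma delta fates (0.00553 and 0.0776) and alpha beta T markers (-0.0158, - polarity). Each ratio already pairs both populations on 1 array, and no further pairing was possible because the arrays stand for 1 replicate.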

Other observations

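Beyond the members, some relatives named after their values were seen were also past 2-fold on average. Among nuclear receptor genes, Thra, a thyroid hormone receptor, was at -0.712 ± 0.118 (5.15-fold) and Nr1h3, the oxysterol receptor LXRα, at -0.331 ± 0.0641 (2.15-fold, with -0.286 on the - polarity array), both on the side of Il22 and the myeloid markers. Among interleukin genes, Il10 was at 0.310 ± 0.0546 (2.04-fold, with 0.272 on the + polarity array) and Il7 at 0.307 ± 0.101 (2.03-fold, with 0.236 on the - polarity array), on the side of Il13. Il3 had 0.541 and -0.538 on the + and - polarity arrays, so its mean of 0.0018 ± 0.763 hides opposite signs.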
